A study of Mus musculus with 2 samples.

Results

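Basal keratinocytes of the interfollicular epidermis that carried transcripts of the cell division genes *Mki67*, *Top2a* and *Cdk1* were examined in single-cell RNA-seq of back skin epithelium from mouse embryos at embryonic day 17 (E17). They numbered 1355 of 8024 kept cells. Of these, 874 were among the 4447 cells of the control (Ctrl) library, which is 19.7%, and 481 were among the 3577 cells of the *Mettl3* conditional knockout (cKO) library, which is 13.4%. A cell was chosen by its measured counts of unique molecular identifiers (UMIs, each marking 1 captured mRNA molecule). It had at least 1800 detected genes, at least 80 UMIs of the basal keratins *Krt5* and *Krt14* per 10000 UMIs, under 30 per 10000 of the suprabasal keratins *Krt1* and *Krt10*, 0 UMIs of the follicle and gland genes *Shh*, *Dkk4*, *Lhx2*, *Sox9* and *Krt79*, and at least 5 UMIs of *Mki67*, *Top2a* and *Cdk1* together. Levels of these genes in the chosen cells therefore describe the choice and were not tested.

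There was 1 library of each genotype, both from the C57BL/6 strain. In the Ctrl embryos 1 *Mettl3* allele was floxed and the other was intact (*Mettl3* fl/+), while in the cKO embryos both were floxed (*Mettl3* fl/fl). What they shared was the K14Cre transgene and a single Cre-activated reporter allele, which the labels spell Rosa16-YFP fl/+. K14Cre is driven by the keratin 14 promoter, which is active in the basal progenitors of the skin epithelium, so the control cells are themselves heterozygous for the deletion wherever Cre has acted. YFP+ cells were sorted and gated on integrins α6 and β1, a gate that bears on the share of every cell type. The number of embryos behind each library is not given in the sources used here. With 1 library of each genotype no test between genotypes was possible. Intervals are exact 95% intervals, apart from a normal one for a difference of shares, and cover counting error only, not the spread between animals. Those of levels and ratios take each UMI as independent, so they also leave out the spread between cells.

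The Ctrl library held 59664869 UMIs and the cKO library 49755010 UMIs over all barcodes, and the chosen cells contributed 10324709 and 5692809 of these. Median depth per chosen cell was close in the libraries, at 11243 UMIs in Ctrl and 11373 UMIs in cKO, and the median mitochondrial share was 4.99% and 5.11%. The libraries differed in sex. *Xist*, the RNA that silences 1 X chromosome in females, had 24195 UMIs in the Ctrl cells and 0 in the cKO cells, whereas the Y-linked genes *Ddx3y*, *Eif2s3y*, *Kdm5d* and *Uty* had 1 UMI in Ctrl and 624 UMIs in cKO, so sex and genotype cannot be told apart. *Mettl3*, the catalytic subunit of the m6A writer, was at 10.2 CPM (105 UMIs) in Ctrl and 6.5 CPM (37 UMIs) in cKO, where CPM is the UMIs of a gene per 1000000 UMIs of the summed cells, and the ratio was 0.639 (0.427 to 0.938). A UMI marks a molecule at its 3′ end, so levels were not divided by gene length. The floxed segment is the fourth exon, and the libraries read the 3′ ends of transcripts, so this level does not check the label. Of the barcodes kept, 16 occurred in both libraries, 5 of the chosen Ctrl cells had a barcode also kept in cKO, and 1 barcode was chosen in both.

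A dividing cell copies its DNA in S phase, passes through G2 and separates its chromosomes in M phase. Cyclin B with CDK1 starts mitosis, the spindle checkpoint holds back the anaphase-promoting complex (APC/C) until every kinetochore is attached, and destruction of cyclin B and securin then lets the chromosomes part and the cell divide. In the epidermis division takes place mainly in the basal layer, whose cells hold to the basement membrane through integrins and hemidesmosomes. Cells that commit to differentiate exchange keratins 5 and 14 for keratins 1 and 10. At this embryonic stage the paper describes some cells with *Krt1* and *Krt10* as cycling too. METTL3 places m6A on mRNA, a mark that affects the stability and translation of transcripts.

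The genes used in the choice were unequally spread over the chosen cells. *Top2a*, which untangles DNA in S phase and mitosis, had a median of 5 UMIs per Ctrl cell and 4 UMIs per cKO cell, and *Cdk1*, the kinase of mitotic entry, had medians of 4 and 3. *Mki67*, which coats mitotic chromosomes and is the most used proliferation marker, had a median of 1 UMI in both, with at least 1 UMI in 75.3% of the Ctrl and 79.8% of the cKO cells. Among Merkel-like cells, a type that is largely out of cycle, 1 of 20 (5.0%, median depth 5736 UMIs) had such a UMI in Ctrl and 1 of 14 (7.14%, median depth 5408 UMIs) in cKO. *Mki67* was a gene of the choice, and the Merkel-like cells were few and of lower depth, so this contrast only describes the choice. Summed over the chosen cells, *Top2a* was at 459 CPM in Ctrl and 361 CPM in cKO, a ratio of 0.786 (0.746 to 0.828). For *Mki67* these levels were 137 and 153 CPM, a ratio of 1.11 (1.02 to 1.21), and for *Cdk1* 354 and 345 CPM, a ratio of 0.974 (0.921 to 1.03). Thus *Top2a* made up less of the choice in cKO than in Ctrl, and *Mki67* more. The UMI counts ran on across the threshold without a gap: 90 Ctrl and 56 cKO basal cells had 4 UMIs of the 3 genes and lay just outside, while 74 and 57 had 5 UMIs and lay just inside. The other limits also cut through continuous ranges, with 58 cells in Ctrl and 58 in cKO at 70 to under 80 per 10000 of *Krt5* and *Krt14*, against 56 and 77 chosen cells at 80 to under 90. The cells are a range of counts and not a separate type.

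**Figure D1:**
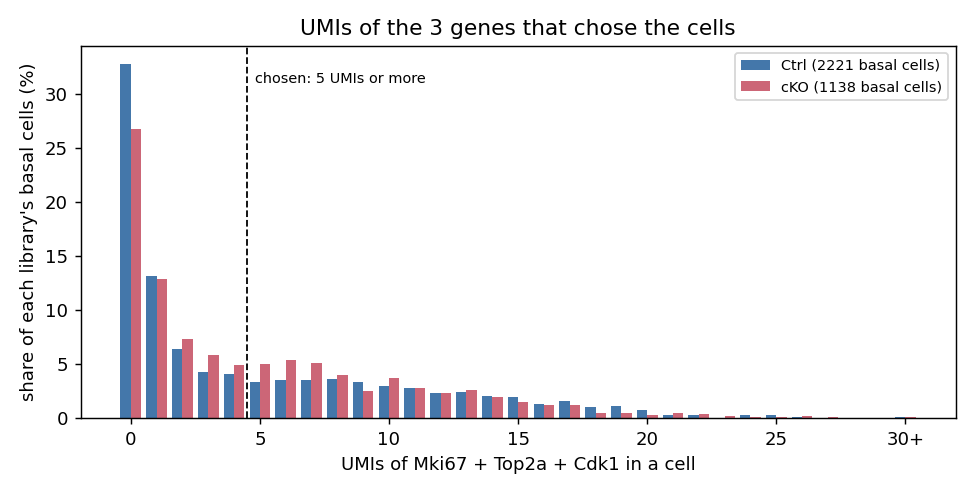
UMIs of *Mki67*, *Top2a* and *Cdk1* together in each basal cell (x axis) against the share of the basal cells of each library in percent (y axis), for the 2221 Ctrl (blue) and 1138 cKO (red) basal cells. The dashed line marks the limit of 5 UMIs, and the shares run on across it without a gap, highest at 0 UMIs.

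As a share of basal cells, those that met every condition other than the last, the chosen cells were 39.4% (37.3 to 41.4) of 2221 in Ctrl and 42.3% (39.4 to 45.2) of 1138 in cKO. The difference was 2.92 percentage points, with an interval from -0.60 to 6.43 that includes 0. In an alternative, kept cells under 5500 UMIs were left out, 172 in Ctrl and 244 in cKO. The others were thinned to 5500 UMIs and the conditions were applied again. The shares were then 24.2% (22.5 to 26.0) of 2315 basal cells and 21.6% (19.3 to 24.0) of 1190. The difference of -2.59 points (-5.51 to 0.32) had the other sign. Neither interval left out 0. With at least 8 UMIs of the 3 genes at full depth the difference was -2.15 points. The direction depended on the setting. Thinning changed the depth, the cells kept and the effect of the limit of 5 UMIs together, and which of these mattered was not tested. The lower share of chosen cells among all kept cKO cells thus went with a lower share of basal cells, which were 49.9% of the kept cells in Ctrl and 31.8% in cKO.

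Whether the cells carried other transcripts of G2 and M was checked with marks that the choice did not use. The late marks were 15 genes that peak in G2 and M (*Ccnb1*, *Ccnb2*, *Plk1*, *Aurka*, *Cdc20*, *Cenpe*, *Cenpf*, *Ube2c*, *Hmmr*, *Kif20a*, *Kif23*, *Tpx2*, *Cenpa*, *Bub1* and *Pttg1*), and the S marks were 15 replication genes (*Mcm2* to *Mcm7*, *Pcna*, *Gins2*, *Cdc6*, *Tyms*, *Rrm2*, *Uhrf1*, *Slbp*, *Dut* and *Ung*). At least 5 UMIs of the late marks were found in 780 of 874 Ctrl cells (89.2%) and 432 of 481 cKO cells (89.8%), against 11.7% and 9.21% of the basal cells with 0 UMIs of *Mki67*, *Top2a* and *Cdk1*, called mark-negative here (728 Ctrl and 304 cKO cells, with median depths of 7761.5 and 7772 UMIs). The S marks reached 5 UMIs in 758 Ctrl (86.7%) and 397 cKO cells (82.5%), and both sets did so in 664 and 348 cells. Late marks alone were found in 116 Ctrl and 84 cKO cells, S marks alone in 94 and 49 cells, and no chosen cell lacked both. The S marks separated the classes little, since 66.5% of mark-negative cells in Ctrl and 76.6% in cKO also held 5 UMIs of them, and no phase was read from them. When cells were thinned to 5500 UMIs and chosen again, 82.1% of 560 Ctrl and 86.0% of 257 cKO cells reached 5 UMIs of the late marks, against 11.8% and 10.4% of mark-negative cells. For the S marks these shares were 63.0% and 52.9%, against 56.0% and 64.2%. Both sets were then reached by 45.4% of the chosen Ctrl and 39.3% of the chosen cKO cells, down from 76.0% and 72.3% at full depth. The late marks thus set the chosen cells apart at both depths, whereas the share of cells with both kinds of transcript fell when cells were thinned and chosen again. Cells with few late mark UMIs were among those chosen, and the late marks do not separate G2 from M. The name mitotic-phase was therefore not shown for each of the chosen cells.

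Against the mark-negative basal cells of the same library, 404 of 9370 genes measured in Ctrl (4.31%) were at least 2-fold higher in the chosen cells and 43 (0.459%) at least 2-fold lower. In cKO these were 329 of 8247 genes (3.99%) and 36 genes (0.437%). A gene was measured with at least 50 UMIs over both sums of cells, so a gene found mainly in the chosen cells could enter through them, and the ratios describe the choice. Apart from the 3 genes of the choice, the highest ratio in Ctrl was that of *Iqgap3*, a scaffold protein of dividing cells, at 124 (22.1 to 4927), which rests on 1 UMI in the mark-negative cells. Next came *Neil3*, a DNA glycosylase, at 50.6 (21.5 to 157), *Aurkb*, the kinase of the chromosomal passenger complex, at 34.3 (22.4 to 55.7), and *Mxd3*, a MAX-binding repressor expressed in S phase, at 32.0 (16.7 to 70.5). The others among the 20 highest with at least 200 UMIs were *Esco2*, *Spag5*, *Plk1*, *Nusap1*, *Ube2c*, *Nuf2*, *Cdkn2c*, *Hmmr*, *Cdca2*, *Prc1*, *Aurka*, *Pbk* and *Cdca5*, with ratios from 31.8 down to 19.5. *Cdkn2c*, an inhibitor of the G1 kinases CDK4 and CDK6, stood at 32.9 CPM in Ctrl and 27.9 CPM in cKO and was 21.6-fold (11.3 to 47.7) higher than in mark-negative Ctrl cells. On the other side, the histone gene *Hist1h2bc* had a ratio of 0.221, *Ahnak2* of 0.329, the linker histone gene *Hist1h1c* of 0.407, the uracil glycosylase gene *Ung* of 0.442 and the G1 cyclin gene *Ccnd1* of 0.521 in Ctrl.

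The 5 lists of G2 and M genes (cyclins and kinases, spindle checkpoint and APC/C, kinetochore, motors and spindle, chromosome condensation and cohesion) held 103 different genes besides the 3 of the choice, and all were measured. In Ctrl 92 of them and in cKO 89 were at least 2-fold higher than in mark-negative cells, with median log2 ratios of 2.90 and 2.84, beside medians of 0.03 and 0.06 over all measured genes. Over all genes with at least 50 UMIs in both sums together, 680 of 9489 (7.17%) were at least 1.5-fold higher in cKO and 354 (3.73%) at least 1.5-fold lower, with a median log2 ratio of 0.01. Of the 103 G2 and M genes, 1 (0.971%) was at least 1.5-fold higher and 3 (2.91%) were at least 1.5-fold lower. Their median log2 ratio was -0.04. The background takes in genes with few counts, so these shares are not matched for counts. Among 6323 genes with at least 200 UMIs, 315 were at least 1.5-fold higher and 111 at least 1.5-fold lower. Smaller differences were common: the interval of the ratio lay below 1 for 32 of the 103 and above 1 for 18, against 1452 and 1755 of the 9489 measured genes. Their summed level was 25170 CPM in Ctrl and 24828 CPM in cKO, a ratio of 0.986 (0.980 to 0.993). The summed ratio lay on the other side of 1 in mark-negative cells, at 1.04 (1.02 to 1.05), in cells with 1 to 4 UMIs of the division genes, at 1.09 (1.08 to 1.10), and over all basal cells, at 1.05 (1.05 to 1.06). The lists were not alike in mark-negative cells. Motors and spindle stood at 1.05 (1.02 to 1.09), condensation and cohesion at 1.05 (1.02 to 1.07), and spindle checkpoint and APC/C at 0.942 (0.893 to 0.992). Intervals of the other lists included 1. The 15 late marks stood at 0.724 (0.656 to 0.799) there.

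Among the 18 cyclins and cell cycle kinases, none passed 1.5-fold, and the median log2 ratio was 0.01. *Ccnb1*, which encodes the cyclin that activates CDK1, was at 221 CPM in Ctrl and 223 CPM in cKO, a ratio of 1.01 (0.939 to 1.08). *Ccnb2*, the other mitotic B cyclin, was at 156 and 154 CPM, a ratio of 0.991 (0.912 to 1.08). Both cyclins had nearly equal levels. The lowest ratio of the list was that of the S and G2 cyclin gene *Ccna2*, at 131 and 109 CPM with a ratio of 0.829 (0.752 to 0.912). *Plk1*, a kinase of centrosome maturation and mitotic entry, was at 90.3 and 85.4 CPM (0.946, 0.846 to 1.06), and *Cks2*, whose product binds CDK1 and which had the highest level of the list, was at 809 and 861 CPM (1.06, 1.03 to 1.10). In mark-negative cells, by contrast, *Ccnb1* had a cKO to Ctrl ratio of 0.534 (0.332 to 0.829) at low counts.

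Of the 18 genes of the spindle checkpoint and APC/C, *Pttg1* alone passed 1.5-fold. It encodes securin, which holds separase inactive until anaphase, and was at 176 CPM (1813 UMIs) in Ctrl and 102 CPM (581 UMIs) in cKO, a ratio of 0.581 (0.528 to 0.638). The mark-negative cells gave a like ratio for *Pttg1*, 0.596 (0.442 to 0.794). *Ube2c*, the ubiquitin-conjugating enzyme of the APC/C and the highest of the list, was at 668 and 665 CPM, a ratio of 0.996 (0.957 to 1.04), and *Cdc20*, the APC/C activator, at 215 and 213 CPM, a ratio of 0.994 (0.926 to 1.07). These levels were equal within counting error. The gene for survivin, *Birc5*, stood above 1 at 401 and 492 CPM (1.23, 1.17 to 1.29), whereas the checkpoint kinase gene *Bub1b* stood below it at 56.0 and 41.8 CPM (0.747, 0.639 to 0.870).

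The 21 kinetochore and centromere genes had a median log2 ratio of -0.05, and 1 passed 1.5-fold. *Casc5*, whose product KNL1 joins the checkpoint proteins to the kinetochore, was at 38.5 CPM in Ctrl and 59.2 CPM in cKO, a ratio of 1.54 (1.33 to 1.78). *Sgol1* and *Sgol2a*, which protect cohesion at centromeres, also had ratios above 1, at 1.30 (1.14 to 1.49) and 1.41 (1.16 to 1.70). Subunits of the NDC80 complex, which holds microtubules, did not share a direction with them: *Spc25* had a ratio of 0.705 (0.633 to 0.785), *Ndc80* of 0.812 (0.665 to 0.987), *Nuf2* of 0.968 (0.823 to 1.14) and *Spc24* of 0.989 (0.919 to 1.06). The list was therefore mixed, with intervals above 1 for 6 genes and below 1 for 8.

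The 26 motors and spindle genes had a median log2 ratio of -0.01. The exception was *Nusap1*, a microtubule-bundling protein of the spindle, at 153 CPM (1577 UMIs) in Ctrl and 98.2 CPM (559 UMIs) in cKO, a ratio of 0.643 (0.583 to 0.708). *Tpx2*, which targets AURKA to the spindle, was at 123 and 122 CPM (0.989, 0.901 to 1.09), and *Kif11*, the motor that separates the spindle poles, at 60.0 and 53 CPM (0.883, 0.767 to 1.02). Of the 21 genes of condensation and cohesion, 17 lay below 1 and the median log2 ratio was -0.15, but *H2afx* alone passed 1.5-fold. *H2afx* encodes the histone variant that is phosphorylated at DNA breaks and was at 565 CPM (5830 UMIs) in Ctrl and 319 CPM (1818 UMIs) in cKO, a ratio of 0.566 (0.536 to 0.596). In mark-negative cells its ratio was 1.01 (0.847 to 1.2), an interval that includes 1, and the difference between the ratios was not tested. The condensin genes *Smc2* and *Smc4* had ratios of 0.834 (0.773 to 0.90) and 0.848 (0.800 to 0.898), and the cohesin gene *Smc1a*, which is X-linked, of 0.678 (0.619 to 0.741). *Cdca5*, which encodes sororin, the stabiliser of cohesion, was highest of this list at 1.47 (1.27 to 1.71).

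For 11 of 12 listed cytokinesis genes found in the files, none passed 1.5-fold. Over all measured genes 7.17% did so upward and 3.73% downward. *Prc1*, the midzone bundler, was at 150 and 123 CPM (0.816, 0.745 to 0.892) and *Racgap1*, a subunit of centralspindlin, at 116 and 83.3 CPM (0.716, 0.643 to 0.797), whereas *Anln*, the actin-binding anillin, was at 41.6 and 42.2 CPM (1.01, 0.863 to 1.19). Of 18 listed genes of spindle orientation, which sets whether a basal cell divides in the plane of the layer or out of it, 14 were measured and none passed 1.5-fold. *Gpsm2*, the adaptor LGN, was at 72.4 and 64.6 CPM (0.893, 0.786 to 1.01) and *Numa1* at 37.2 and 27.8 CPM (0.746, 0.616 to 0.90).

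Promoters of 6 of these genes are printed because G2 and M genes are known for short promoter elements, the CCAAT box and the cell cycle genes homology region (CHR), and the set takes the 3 genes of the choice and 3 mitotic genes, of which *Plk1* and *Cdc20* had ratios near 1 between genotypes and *Nusap1* a low one. The sequences are from RefSeq on GRCm38.p6 and run 5′ to 3′ on the strand of the gene. They end at the base before the RefSeq start, or before the GENCODE gene where that begins first. This left out 26 bases of *Cdk1* and 9 of *Cdc20*, so that 94 and 111 bases are printed for these and 120 for the others. Capitals mark a CCAAT box, searched by those letters on both strands, or a CHR. The CHR was searched as TTTGAA on both strands and, as a variant that reads the same on either strand, as TTCGAA. *Cdk1* lies on the minus strand at chr10:69352939-69353032, *Top2a* on the minus strand at chr11:99024190-99024309, *Mki67* on the minus strand at chr7:135716380-135716499, *Plk1* on the plus strand at chr7:122159315-122159434, *Cdc20* on the minus strand at chr4:118437353-118437463 and *Nusap1* on the plus strand at chr2:119618178-119618297.
*Cdk1*: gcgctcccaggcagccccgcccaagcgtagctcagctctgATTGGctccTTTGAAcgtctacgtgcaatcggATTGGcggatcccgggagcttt
*Top2a*: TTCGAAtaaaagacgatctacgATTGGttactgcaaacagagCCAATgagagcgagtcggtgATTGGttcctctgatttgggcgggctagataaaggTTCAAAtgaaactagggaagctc
*Mki67*: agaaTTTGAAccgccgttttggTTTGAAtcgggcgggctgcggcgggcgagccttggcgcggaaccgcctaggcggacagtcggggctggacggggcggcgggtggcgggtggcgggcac
*Plk1*: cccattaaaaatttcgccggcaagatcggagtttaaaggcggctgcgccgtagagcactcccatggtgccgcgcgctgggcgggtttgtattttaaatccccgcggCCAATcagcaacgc
*Cdc20*: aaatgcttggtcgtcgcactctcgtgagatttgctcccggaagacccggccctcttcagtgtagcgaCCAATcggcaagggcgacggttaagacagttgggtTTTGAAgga
*Nusap1*: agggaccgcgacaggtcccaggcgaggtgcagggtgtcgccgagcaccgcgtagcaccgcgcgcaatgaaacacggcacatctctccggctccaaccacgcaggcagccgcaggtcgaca

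*Top2a* held 3 CCAAT boxes and 2 CHR matches in the printed bases, and *Cdk1* held 2 CCAAT boxes and 1 CHR match. *Mki67* held no CCAAT box and 2 CHR matches, *Plk1* held 1 CCAAT box, *Cdc20* held 1 of each, and *Nusap1* held neither. In the 120 bases before the RefSeq start, with both strands searched, a CCAAT box was found for 24.2% of 27025 genes with a promoter in the table, a CHR for 8.83% and both for 1.91%. Of the 103 G2 and M genes 85 were matched to a promoter, and 52 of these (61.2%) had a CCAAT box, 25 (29.4%) a CHR and 16 (18.8%) both. Of the 15 late marks 13 were matched, of which 12 had a CCAAT box and 2 a CHR. The shares in the G2 and M lists stood above those over all promoters, and no test of this was made. A match is a description of letters and not a site.

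**Figure D2:**
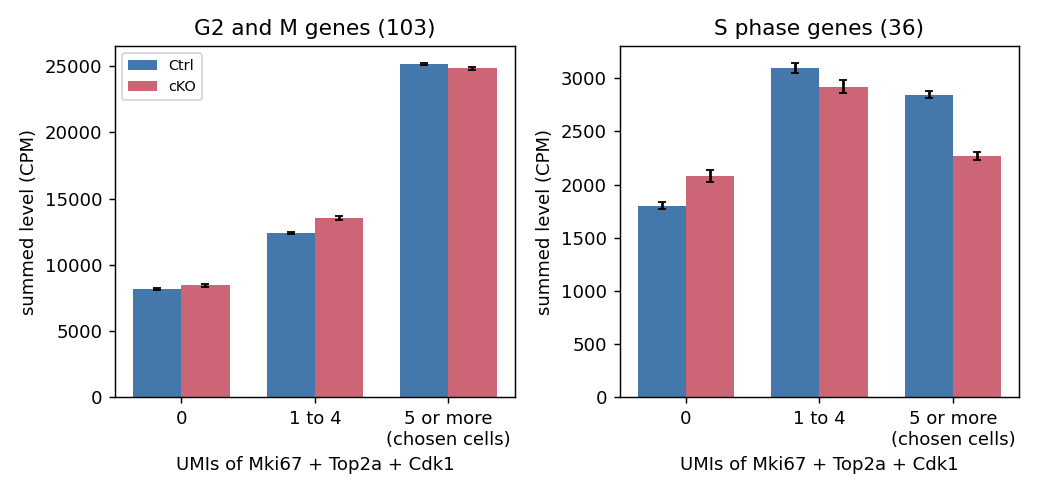
Summed level in CPM (y axis) of 103 G2 and M genes (left) and 36 S phase genes (right) in basal cells with 0, 1 to 4, or 5 or more UMIs of *Mki67*, *Top2a* and *Cdk1* (x axis), the last being the chosen cells, in Ctrl (blue) and cKO (red), with exact Poisson intervals as error bars. The G2 and M genes stand at 25170 and 24828 CPM in the chosen cells, while the S phase genes stand at 2845 and 2267 CPM there and in the opposite order, 1802 and 2078 CPM, in cells with 0 UMIs.

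Of 36 genes of DNA replication, all measured, 33 had a lower level in cKO, the interval of the ratio lay below 1 for 26 and above 1 for 1, and the median log2 ratio was -0.33. Over all 9489 measured genes 4551 lay below 1, and the interval lay below 1 for 1452. Because the shifts were moderate, 3 of the 36 (8.33%) passed 1.5-fold downward and none upward, beside 3.73% and 7.17% of all measured genes. Their summed level in the chosen cells was 2845 CPM in Ctrl and 2267 CPM in cKO, a ratio of 0.797 (0.781 to 0.814). In mark-negative cells the order was the reverse, with 1802 and 2078 CPM (1.15, 1.12 to 1.19), and cells with 1 to 4 UMIs of the division genes had the highest levels, 3100 and 2918 CPM, with a ratio between the others (0.941, 0.917 to 0.966). Over all basal cells the ratio was 0.915 (0.902 to 0.929). Of the 34 genes measured in both kinds of cell, 25 were lower in cKO among the chosen and higher in cKO among the mark-negative cells, and 0 showed the opposite. Over all 8121 genes measured in both these counts were 1096 and 1282. The classes were cut by the division genes of the choice, of which *Top2a* acts in S phase too and had a ratio of 0.786. Cells could thus be placed in the classes differently in each library, and how far the reversal depends on this was not tested.

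Among the genes of nucleotide supply, *Tyms* (chr5:30058202-30073617 on GRCm38), thymidylate synthase, was at 237 CPM (2449 UMIs) in Ctrl and 173 CPM (983 UMIs) in cKO, a ratio of 0.728 (0.675 to 0.784). *Rrm1* and *Rrm2*, the subunits of ribonucleotide reductase, had ratios of 0.775 (0.708 to 0.848) and 0.758 (0.694 to 0.827), and *Dut*, which removes dUTP, of 0.810 (0.761 to 0.862). The replicative helicase was lower in each of its 6 subunits, from 0.729 (0.630 to 0.840) for *Mcm6* to 0.844 (0.733 to 0.970) for *Mcm5*. Among the factors of the fork, *Lig1* (chr7:13277283-13311433), the ligase that joins Okazaki fragments, was at 136 CPM (1401 UMIs) and 95.7 CPM (545 UMIs), a ratio of 0.706 (0.638 to 0.779), and *Pcna*, the sliding clamp, was at 81.2 and 66.2 CPM (0.816, 0.721 to 0.922). The 3 genes past 1.5-fold were *Gins3*, a helicase cofactor, at 0.489 (0.298 to 0.775), *Pola1*, the catalytic subunit of DNA polymerase alpha and X-linked, at 0.589 (0.474 to 0.729), and *Rfc4*, a clamp loader subunit, at 0.641 (0.558 to 0.734). *Slbp*, whose product binds histone mRNA, was at 217 and 149 CPM (0.688, 0.635 to 0.745). Against this direction stood *Fen1*, the flap endonuclease, at 70.1 CPM in Ctrl and 97.7 CPM in cKO, a ratio of 1.39 (1.24 to 1.56). In mark-negative cells *Lig1* had a ratio of 1.42 (1.2 to 1.68) and *Tyms* of 1.11 (0.90 to 1.36), so that *Lig1* was on opposite sides of 1 in the chosen and the mark-negative cells.

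The chosen cells were also divided in each library into 4 equal bins by the late marks per 10000 UMIs, which orders them by how far G2 and M transcripts had accumulated. The S phase list was lower further along this order in both libraries, going from 5065 CPM in the first Ctrl bin through 3685 and 1956 to 972 CPM in the last, and from 4432 through 2751 and 1339 to 877 CPM in cKO. The cKO to Ctrl ratio was 0.875 (0.848 to 0.903), 0.746 (0.718 to 0.776), 0.685 (0.649 to 0.721) and 0.902 (0.845 to 0.963) from the first bin to the last. The lower level in cKO was present in every bin, with the lowest ratio in the third. In the first bin of both libraries the list stood above its level in basal cells with 1 to 4 UMIs of the division genes. That level was 3100 CPM in Ctrl and 2918 CPM in cKO. The name mitotic-phase was least borne out in this first bin, which had the fewest late marks and the most S phase transcripts. *Ung* went from 109 CPM in the first Ctrl bin through 15.0 and 3.48 to 2.49 CPM in the last, and *Ccne2*, an E cyclin gene, from 40.1 CPM through 16.6 and 1.55 to 0.356 CPM. *Cdc25b*, the phosphatase that activates CDK1 and no late mark, went the other way, from 5.68 CPM through 8.51 and 24.8 to 73.1 CPM in Ctrl and from 6.06 to 70.6 CPM in cKO, and *Cdc25c* and *Nek2* did likewise. *Krt14* was flat along the order in Ctrl, at 10907 CPM in the first bin and 10803 CPM in the last. The bins were drawn from the same cells and serve as a description.

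**Figure D3:**
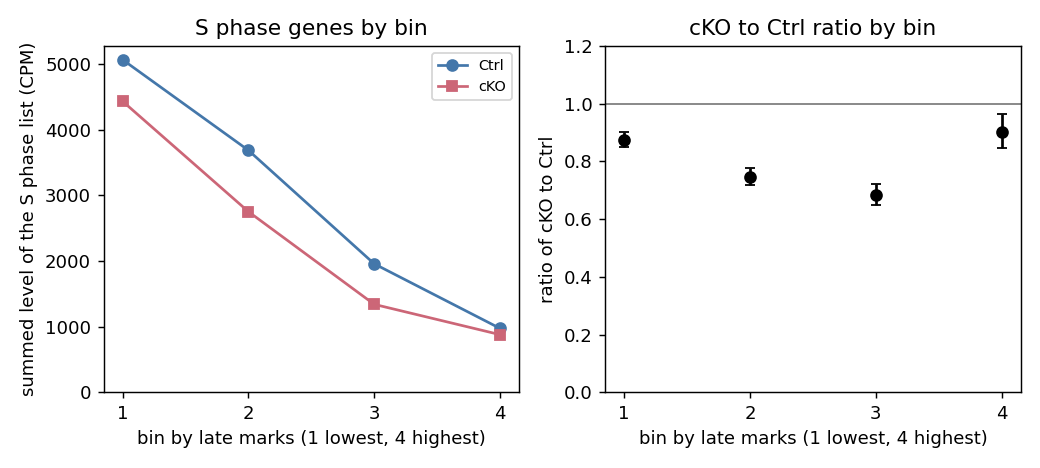
Bins of the chosen cells in order of their late mark UMIs (x axis), with the summed level of 36 S phase genes in CPM for Ctrl and cKO (left) and the cKO to Ctrl ratio with its exact interval (right, the grey line at 1). The level falls from 5065 to 972 CPM in Ctrl and from 4432 to 877 CPM in cKO, and every ratio lies below 1.

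Histone genes were the list furthest below 1 by its median. Of 18 listed genes 16 were measured, of which 14 were lower in cKO, with a median log2 ratio of -0.38. At least 1.5-fold lower were 5 (31.25%) and at least 1.5-fold higher 2 (12.5%), beside 3.73% and 7.17% of all measured genes. *Hist3h2a* (chr11:58954685-58956830), an H2A gene, was at 83.9 CPM (866 UMIs) in Ctrl and 15.3 CPM (87 UMIs) in cKO, a ratio of 0.182 (0.144 to 0.227). *Hist1h1c* (chr13:23738808-23740367), which encodes the linker histone H1.2, was at 63.7 CPM (658 UMIs) and 14.8 CPM (84 UMIs), a ratio of 0.232 (0.182 to 0.291), and the H2B gene *Hist1h2bc* was at 52.6 and 22.5 CPM, a ratio of 0.428 (0.35 to 0.519). These 3 genes were low in cKO in mark-negative cells too, with ratios of 0.311 (0.215 to 0.436), 0.352 (0.292 to 0.423) and 0.565 (0.50 to 0.638). *Hist1h2bc* and *Hist1h1c* were also lower in the chosen than in the mark-negative cells of both libraries. Other histone genes stood higher in the chosen cells. *Hist1h1b* was 12.4-fold higher in the chosen than in the mark-negative Ctrl cells and had a cKO to Ctrl ratio of 0.793 (0.680 to 0.922), and *Hist1h2ap*, 17.8-fold higher, was at 18.1 and 29.3 CPM, a ratio of 1.62 (1.31 to 2.01). The libraries were primed on poly(A), which most S phase histone transcripts lack, and histone genes have near-identical copies, so these levels are uncertain as measures of histone mRNA.

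Of 25 listed brakes of the cycle and p53 targets, 23 were measured, 0 were at least 1.5-fold higher in cKO and 3 (13.0%) were at least 1.5-fold lower. Over all measured genes these shares were 7.17% and 3.73%. *Cdkn1c*, the imprinted CDK inhibitor p57, was at 282 CPM (2908 UMIs) in Ctrl and 132 CPM (749 UMIs) in cKO, a ratio of 0.467 (0.431 to 0.506), close to its ratio of 0.533 (0.467 to 0.606) in mark-negative cells. *Trp53* was at 248 and 162 CPM (0.652, 0.605 to 0.704) and *Rb1*, at few counts, had a ratio of 0.596 (0.355 to 0.966). The p53 target *Cdkn1a*, the inhibitor p21, was at 14.7 and 17.4 CPM, with an interval of the ratio from 0.908 to 1.53 that includes 1. Among 19 of 24 listed G1 cyclins and growth signals, 2 (10.5%) were at least 1.5-fold higher and 1 (5.26%) was at least 1.5-fold lower. *Ccnd1* (chr7:144929931-144939925), cyclin D1, was at 24.4 CPM (252 UMIs) in Ctrl and 53.2 CPM (303 UMIs) in cKO, a ratio of 2.18 (1.84 to 2.59), against 1.33 (1.08 to 1.62) in mark-negative cells. The ratio of chosen to mark-negative cells for *Ccnd1* was 0.521 (0.437 to 0.620) in Ctrl and 0.855 in cKO. *Ccnd2*, the D cyclin gene with the highest level here, was at 831 and 886 CPM (1.07, 1.03 to 1.10). *Egr1*, an immediate early gene, was lower in cKO at 0.563 (0.494 to 0.641), and *Bmyc* higher at 1.72 (1.52 to 1.95).

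Of the basal keratins, *Krt14* was at 10703 CPM in Ctrl and 8927 CPM in cKO, a ratio of 0.834 (0.825 to 0.843), and *Krt5* at 5007 and 4020 CPM, a ratio of 0.803 (0.790 to 0.815), both used in the choice. *Krt15*, a keratin of basal cells not used in the choice, was at 5819 and 3677 CPM, a ratio of 0.632 (0.622 to 0.642), and at 0.649 (0.635 to 0.663) in mark-negative cells. *Trp63*, the master regulator of the basal layer, was at 281 and 317 CPM (1.13, 1.06 to 1.2). Of 17 listed genes of the hemidesmosome, integrins and laminins 16 were measured, none passed 1.5-fold, and the median log2 ratio was 0.03. *Itga6* and *Itgb1*, the integrins of the sort, were at 121 and 144 CPM (1.19, 1.09 to 1.30) and at 60.6 and 61.1 CPM (1.01, 0.882 to 1.15). Of 13 measured desmosome and adherens junction genes 1 (7.69%) passed, upward. This was *Cdh1*, E-cadherin, at 56.8 CPM in Ctrl and 88.9 CPM in cKO, a ratio of 1.57 (1.39 to 1.77). In mark-negative cells its ratio was 1.00 (0.827 to 1.2). Of 24 measured WNT pathway genes 1 (4.17%) passed, downward, the repressor gene *Tcf7l1* at 0.556 (0.40 to 0.760). Over all measured genes 7.17% were at least 1.5-fold higher and 3.73% at least 1.5-fold lower in cKO.

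Of 24 listed genes of commitment to differentiation, 18 were measured, of which 7 (38.9%) were at least 1.5-fold higher in cKO and 1 at least 1.5-fold lower, beside 7.17% and 3.73% of all measured genes, and the median log2 ratio was 0.43 against 0.11 in mark-negative cells. The list includes *Krt1* and *Krt10*, which the choice capped, and *Krt1* is 1 of the 7. Its share, median and sum were not taken without them. The summed level of the list differed little, at 5414 CPM in Ctrl and 5682 CPM in cKO, a ratio of 1.05 (1.04 to 1.06), and in mark-negative cells that ratio was 1.07 (1.05 to 1.09), the reverse order of the medians. *Hes1*, a NOTCH target, was at 31.7 CPM (327 UMIs) in Ctrl and 60.3 CPM (343 UMIs) in cKO, a ratio of 1.90 (1.63 to 2.22), against 1.41 (1.12 to 1.78) in mark-negative cells. The transcription factor genes *Grhl3*, *Cebpb* and *Ovol1* had ratios of 1.70 (1.30 to 2.24), 1.62 (1.46 to 1.80) and 1.59 (1.22 to 2.06), and the receptor gene *Notch2* and the desmoglein gene *Dsg1a* had 1.58 (1.04 to 2.38) and 1.66 (1.29 to 2.12). *Krt1* was at 89.8 and 138 CPM, a ratio of 1.53 (1.39 to 1.69). It was kept low by the choice and was abundant in free RNA, at 1380 CPM in Ctrl and 1545 CPM in cKO among barcodes with 10 to 100 UMIs, and with 5% of each sum taken as free RNA and subtracted its ratio was 2.91. *Krt10*, also limited by the choice, did not share the direction, at 193 and 171 CPM (0.887, 0.821 to 0.958), and *Jag2*, a NOTCH ligand gene, was the one below 1.5-fold, at 0.632 (0.454 to 0.870).

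**Figure D4:**
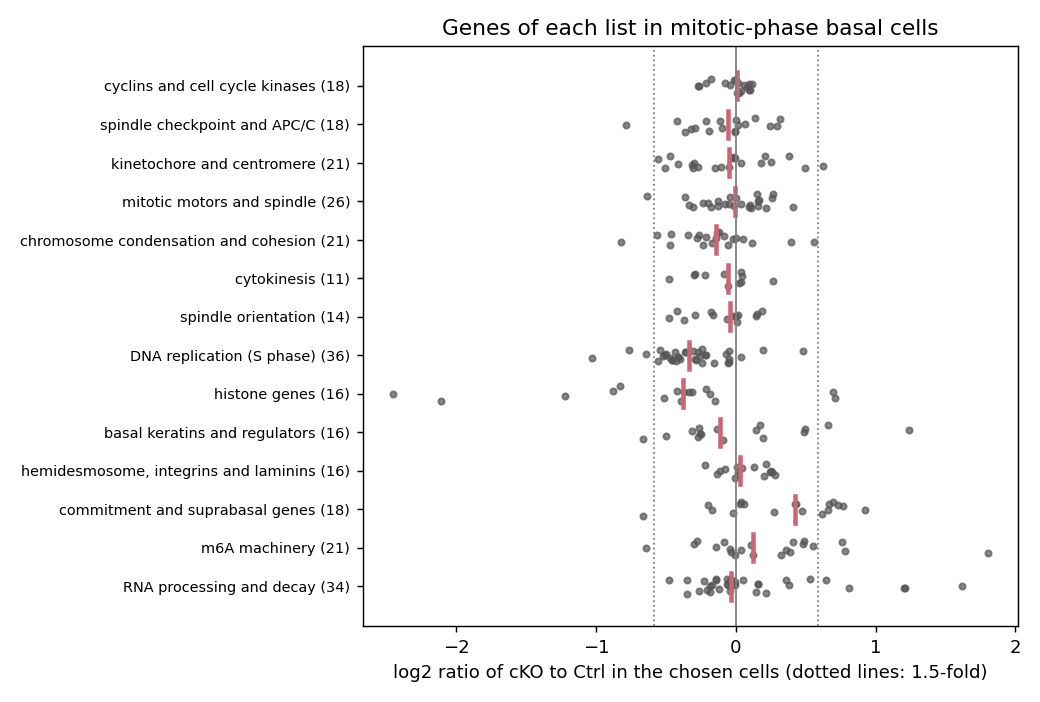
log2 ratio of cKO to Ctrl in the chosen cells (x axis) for each measured gene (grey points) of 14 lists (rows, number of measured genes in parentheses), with the median of each list as a red bar and 1.5-fold as dotted lines. The 5 G2 and M lists have medians from -0.15 to 0.01, the S phase list lies at -0.33, the histone genes at -0.38 and the commitment genes at 0.43. The commitment genes include *Krt1* and *Krt10*, which the choice capped.

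In the m6A machinery, 3 of 21 measured genes (14.3%) were at least 1.5-fold higher in cKO and 1 (4.76%), *Mettl3* itself, at least 1.5-fold lower. Over all measured genes these shares were 7.17% and 3.73%. *Rbm15* (chr3:107325421-107333673), which recruits the writer complex to RNA, was at 14.4 CPM (149 UMIs) in Ctrl and 50.4 CPM (287 UMIs) in cKO, a ratio of 3.49 (2.86 to 4.29). The writer subunit gene *Cbll1* had a ratio of 1.72 (1.33 to 2.21), and the reader gene *Ythdf2*, whose product directs m6A-bearing mRNA to decay, of 1.70 (1.53 to 1.88). *Mettl14*, the partner of METTL3, was at 9.49 and 8.61 CPM (0.907, 0.630 to 1.29). Of 34 genes of RNA processing and decay, 21 lay below 1, the interval lay above 1 for 8 and below 1 for 10, and the median log2 ratio was -0.03. At least 1.5-fold higher were 5 (14.7%, beside 7.17% of all measured genes) and 0 were as much lower. The 5 were the RNase P and MRP subunit genes *Rpp38* at 3.07 (2.39 to 3.97), *Pop7* at 2.31 (2.04 to 2.62) and *Pop1* at 1.57 (1.12 to 2.19), the ribosome rescue factor gene *Pelo* at 2.30 (1.94 to 2.74) and the terminal uridylyltransferase gene *Tut1* at 1.75 (1.21 to 2.55). Among 26 genes of translation initiation the interval lay below 1 for 16 and above 1 for 7, with a median log2 ratio of -0.12 and a summed ratio of 0.953 (0.942 to 0.964). Past 1.5-fold, 1 (3.85%) lay in each direction, *Eif1a* at 1.70 (1.52 to 1.90) and the X-linked *Eif2s3x* at 0.628 (0.546 to 0.721), beside 7.17% and 3.73% of all measured genes. In mark-negative cells the ratio was 3.63 (2.45 to 5.41) for *Rbm15*, 3.48 (2.38 to 5.12) for *Rpp38* and 2.45 (1.95 to 3.07) for *Pelo*, and the difference from the chosen cells was not tested.

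With at least 200 UMIs required over both sums, the highest ratios of cKO to Ctrl in the chosen cells, besides the Y-linked *Ddx3y* and *Eif2s3y*, were those of *Fam212a* at 3.69 (2.96 to 4.60), *Rbm15*, *Rpp38*, the RNase P subunit gene *Rpp25l* at 3.03 (2.73 to 3.38), *Coa7*, a factor of respiratory complexes, at 2.72 (2.26 to 3.28), the RNA polymerase subunit gene *Polr2l* at 2.70 (2.32 to 3.14), *Mad2l1bp*, whose product releases the checkpoint protein MAD2, at 2.66 (2.11 to 3.37), the mRNA export cofactor gene *Nxt1* at 2.63 (2.46 to 2.82), *Prr7* at 2.60 (1.97 to 3.44) and the mitochondrial ribosome gene *Mrpl43* at 2.58 (2.38 to 2.80). Of these *Nxt1* rested on the most counts, with 1359 UMIs in Ctrl and 1974 UMIs in cKO. The lowest, besides *Xist*, were *Ccer2* at 0.112, *Hba-a1* at 0.171, *Hist3h2a*, *Hbb-bs* at 0.224, *Hist1h1c*, the sex chromosome gene *Erdr1* at 0.306 (0.271 to 0.344), *Rgs2*, a regulator of G protein signalling, at 0.382 (0.322 to 0.451), *Mybpc1* and *Gria2* at 0.419 each, *Hist1h2bc* and *Hdac5* at 0.439 (0.333 to 0.572). For 3 of these genes most Ctrl UMIs came from single cells. A Ctrl cell that also held 33 of 49 UMIs of the Merkel cell keratin *Krt8* held 389 of 453 UMIs of *Ccer2*, and another held 908 of 1124 UMIs of the globin gene *Hbb-bs* and 142 of 191 of *Hba-a1*. Without the leading cell of each gene the ratio of *Ccer2* was 0.792 (0.489 to 1.25), that of *Hba-a1* 0.666 (0.365 to 1.16) and that of *Hbb-bs* 1.17 (0.935 to 1.45), and none of these intervals left out 1.

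Markers of Merkel cells, melanocytes, and endothelial and immune cells were rare in the chosen cells. *Dcn* of the fibroblast list and *Krt17* of the follicle list were common. At least 3 UMIs of *Dcn* were found in 589 of 874 Ctrl and 294 of 481 cKO cells. For *Krt17* these counts were 472 and 253. The 6 Merkel markers had 92 UMIs in Ctrl and 15 UMIs in cKO, the 6 melanocyte markers 21 UMIs in each, and the 7 endothelial and immune markers 71 and 29 UMIs. Of these lists *Krt20*, *Tyr* and *Ptprc* were among the markers at 0 UMIs in both libraries. Others were found, with 49 and 8 UMIs of *Krt8*, 7 and 5 of *Dct*, 44 and 20 of *Pecam1* and 26 and 8 of *Cd74*. The 6 fibroblast markers had 7020 UMIs in Ctrl and 3017 UMIs in cKO, of which 6961 and 2989 were *Dcn*. That gene was also high in mark-negative cells, at 824 CPM in Ctrl. *Col1a1* had 18 and 10 UMIs, *Col1a2* had 26 and 12, and *Pdgfra* had 0 UMIs in both libraries. Of the 5 follicle markers that the choice did not use, 4 were measured. Of these 1 (25%) was at least 1.5-fold higher and 1 (25%) at least 1.5-fold lower in cKO. Over all measured genes these shares were 7.17% and 3.73%. *Pthlh*, a parathyroid hormone-like peptide gene, was at 4.07 CPM in Ctrl and 10.2 CPM in cKO, a ratio of 2.5 (1.65 to 3.82). *Edar*, the ectodysplasin receptor gene, was at 14.0 and 7.03 CPM, a ratio of 0.50 (0.343 to 0.714). *Krt17*, a keratin of follicle and periderm cells, was at 642 and 541 CPM (0.843, 0.807 to 0.879), below its level in mark-negative cells with ratios of 0.725 in Ctrl and 0.768 in cKO.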

How the data were processed

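Single-cell RNA-seq of YFP+ epithelial cells of E17 back skin was made with the 10x Genomics 3′ V2 kit, 1 library for each genotype. The authors deposited raw UMI counts per gene and barcode for 27998 genes and all 737280 possible barcodes of each library, made on mm10 with Cell Ranger 2.0 per the submitters' processing notes, before any filter on cells. The annotation release is not given in the sources used here. Such counts take 1 transcript end per molecule and depend on the depth of each cell, and they include RNA from outside the cell.

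Cells were selected by the rule in the opening of the report. The members and the gene lists were chosen with earlier results of these data known, and are not independent evidence of direction. UMIs were summed over the cells of each library and divided by the total of the sum (CPM). Levels carry exact Poisson, ratios exact conditional binomial and shares exact Clopper-Pearson intervals at the 95% level, which cover counting error only, and the difference of shares carries a normal interval. A gene was measured with at least 50 UMIs over both sums. Genes past 1.5-fold between genotypes, or past 2-fold against mark-negative cells, were counted. A fold against 0 UMIs was set at a floor of 3 counts. Merkel-like cells had at least 20 UMIs of *Krt8* and *Krt18* per 10000 and at least 2 UMIs of a Merkel list of 4 genes. No doublet caller was run, and an alternative left out the 4% of barcodes with the most UMIs.

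Genes named are the highest in level and the furthest from 1 of each list, the 12 highest and the 12 lowest ratios where both sums together held 200 UMIs or more, and the 20 genes furthest above mark-negative Ctrl cells with at least 200 UMIs in the chosen Ctrl cells. Other genes named by role, among them members of one complex, the 5 genes named as lower in the chosen than in the mark-negative cells and the E cyclin and CDC25 genes of the 4 bins, were chosen after their values were seen. Positions are from GENCODE vM21 on GRCm38 and promoters from RefSeq on GRCm38.p6, matched by symbol or RefSeq synonym.

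Counts were simulated at the real depths by Poisson draws, the model that the intervals assume, so they hold no spread between cells or animals. Intervals held the true ratio in 96.0% of 9489 genes, and 1.81% of unchanged genes passed 1.5-fold. That 1.81% is not an error rate for the real counts. In the right direction, 40.3% of 67 genes made 1.5-fold and 98.5% of 67 made 2-fold different passed 1.5-fold. Counts past 1.5-fold therefore miss many differences of about that size. Python 3.11.15 with numpy 2.4.6, scipy 1.17.1, pandas 2.3.3 and matplotlib 3.10.9 was used, and R 4.3.3 with edgeR 4.0.16 for TMM factors. The alternatives changed the scaling, the weight of cells, the limits on genes, UMIs and mitochondrial share, the genes of the choice, the reference cells, depth, free RNA and possible doublets.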

Additional observations from a re-analysis of the deposited data

Results flagged for a closer look

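The S phase list lay on opposite sides of 0 in the chosen and the mark-negative basal cells, with a median log2 ratio of cKO to Ctrl of -0.33 in the former and 0.24 in the latter. Both classes were cut by UMIs of the division genes of the choice, and the difference between them was not tested. Among 8121 genes measured in both classes, 6 were past 1.5-fold in opposite directions, and for 3 of them both intervals left out 1. *Zkscan14*, a zinc finger gene, had a ratio of 1.70 (1.09 to 2.63) in the chosen and 0.252 (0.0888 to 0.582) in the mark-negative cells. *Gpatch1*, which encodes a protein with a G-patch domain, had ratios of 0.623 (0.434 to 0.880) and 1.62 (1.07 to 2.44). *Zfp367*, a zinc finger gene, had ratios of 0.623 (0.409 to 0.928) and 1.73 (1.02 to 2.91). All rest on 27 to 131 UMIs in each class and library, except 6 UMIs of *Zkscan14* in the mark-negative cKO cells, and these differences were not tested either.

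Barcodes with 1000 to 1799 genes lay outside the report. Of these, 102 in Ctrl and 59 in cKO met the other conditions of the choice, which is 11.1% (9.11 to 13.3) of 922 and 10.2% (7.85 to 12.9) of 579 basal barcodes, at median depths of 3949 and 3818 UMIs.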

How the results depend on the processing

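The median log2 ratio of the S phase list kept its sign under all 15 alternatives, from -0.43 to -0.28, as did those of the 5 G2 and M lists (-0.07 to -0.03), the histone genes (-0.42 to -0.36) and the commitment genes (0.34 to 0.49). No alternative took *Krt1* and *Krt10*, which the choice capped, out of the commitment list. TMM moved the median of all genes by -0.03 on the log2 scale, and 5 lists with medians near 0 changed sign under some alternatives: cyclins and kinases and the late marks under 4 each, motors and spindle under 2, spindle orientation and the hemidesmosome list under 1 each. The share of chosen cells among basal cells moved under 6 of 9 alternatives. It was 24.2% in Ctrl and 21.6% in cKO when thinned to 5500 UMIs, 31.1% and 31.5% with at least 1000 genes, 59.6% and 64.0% with at least 2500 genes, 47.6% and 53.1% with at least 3 UMIs, 29.0% and 26.8% with at least 8 UMIs, and 29.9% and 28.7% with *Mki67* and *Top2a* alone. The difference of cKO minus Ctrl turned to -2.59, -2.15 and -1.16 points with thinning, with at least 8 UMIs and with *Mki67* and *Top2a* alone. With at least 20 UMIs over both sums 599 genes were at least 1.5-fold lower in cKO, and with at least 200 UMIs 315 were higher and 111 lower, since other numbers of genes were then measured. *Hbb-bs* turned to a ratio of 1.2 with at least 2500 genes and 1.16 without the 2 Ctrl cells that lead single genes. Against all basal cells under 5 UMIs in place of mark-negative cells, 23 genes were lower in Ctrl and 201 higher in cKO, and the medians were 2.11 and 1.76 for the G2 and M lists and 0.31 and -0.24 for the S phase list in Ctrl and cKO. Thinning gave 67 genes lower in Ctrl and 201 higher in cKO, and totals that leave out the 50 most abundant genes and those of mitochondria and ribosomal proteins gave 73 lower in Ctrl and 62 lower in cKO. After thinning, 82.1% and 86.0% of the Ctrl and cKO cells had 5 UMIs of the late marks and 63.0% and 52.9% of the S marks. Leaving out the 2 Ctrl cells, or the barcodes kept in both libraries, was chosen after seeing the data, and the latter changed no direction or count by over 1.5 times. For values that moved or turned without fewer or more genes being measured, the cause was not tested. No paired analysis was possible because each genotype has 1 library. Leaving out a replicate was not possible for the same reason. Sex, genotype and library cannot be told apart, and a gene at 50 UMIs has wide intervals.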
